A study of Mus musculus with 8 samples.

Results

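CpG island shores are the stretches that flank CpG-rich sequence, and 59143 shore sites were described here in mouse liver, of 1320570 HpaII sites listed in the series and 901207 autosomal sites of usable depth. Livers came from mice of the strain C57BL/6J that ate lingonberries as part of a high-fat diet (n = 4, "lingonberry livers") or the high-fat diet by itself (n = 4, "HFD livers"), so that the high-fat diet was shared by all 8 animals. The labels used here state neither sex, age nor length of feeding. Frozen whole liver was used, so each value pools all cell types of the organ. The study's design compares the livers genome-wide to ask whether the berry supplement altered DNA methylation.

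Methylation was measured by HELP-tagging, which counts short tags from the cut ends of CCGG sites. Methylation of the inner cytosine blocks HpaII, whereas MspI cuts in either state. The deposited m-score is 0 at a site with no HpaII tag (methylated) and 100 at a site with no MspI tag (unmethylated). An MspI reference common to the 8 files was scaled to each library, so the m-score ranks a site within its own liver and is not an absolute percentage. Members were chosen by position and reference depth, with no limit set on the m-score. The reference depth was itself recovered from the deposited values, the m-score among them. A site with no MspI tag, at an m-score of 100, could not be a member. The density of a site counted its listed neighbours up to 500 bp away, and sites with a density of 5 or more were called core. A shore site was autosomal, listed in all 8 files, had a density under 5, lay at most 2000 bp from the nearest core site and had at least 10 MspI tags. Of 74687 sites in shore position, 461 were not in all 8 files and 15083 had fewer than 10 MspI tags. Members lay to the left (29342) and to the right (29129) of 14695 clusters of core sites, with 672 inside the span of a cluster. For comparison, the same filters gave 126435 core sites, 32990 shelf sites at over 2000 to 4000 bp and 682639 open sea sites beyond 4000 bp.

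CpG islands are stretches rich in CpG that overlap many gene promoters and are mostly free of methylation, whereas most other CpGs of the mammalian genome are methylated by the DNA methyltransferases. Between these states lie the shores, which are known from work in several tissues as places where methylation differs between cell types more often than inside the islands. Islands were represented here by dense CCGG sites, since no annotation of the files' build mm9 was at hand.

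The libraries held 16076961, 9974503, 6121989 and 10215066 HpaII tags in the lingonberry livers, and 7036766, 6530093, 5877080 and 7428108 in the HFD livers. The deepest libraries were thus in the lingonberry group. The median shore site had between 5 and 12 HpaII tags per liver, and its MspI reference had a median of 26 tags. At a site with 26 MspI tags, 1 HpaII tag was worth an m-score of 4.52 in the deepest library and 12.3 in the shallowest. A count of 0 there allows up to 3 tags, or an m-score of up to 13.4 in the deepest and 33.7 in the shallowest library. Such limits cover counting error only.

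To show what single sites look like, 4 promoters whose CCGG all lay at shore sites are printed, chosen after their values were seen for the range of patterns that they cover. The CCGG motif, which reads the same on both strands, is in capitals. Sequences are from RefSeq on build GRCm38.p6, written along the gene's strand with the transcription start at base 251. Genes were placed on the mm9 sites of the files by the spacing of their CCGG and not by coordinates. Of the RefSeq promoter windows of this length, 52.8% hold the motif at least 1 time and 21.1% at least 3 times. Sycp1 encodes a protein of the synaptonemal complex that joins chromosomes in meiosis. Dbp encodes a transcription factor of the circadian clock's output in liver. Ppp1r3g encodes a subunit that directs protein phosphatase 1 to glycogen. Cryl1 encodes an enzyme of sugar acid metabolism. The windows lie at chr3:102936051-102936350 (Sycp1, minus strand), chr7:45704997-45705296 (Dbp, plus strand), chr13:35967656-35967955 (Ppp1r3g, plus strand) and chr14:57398434-57398733 (Cryl1, minus strand).
Sycp1: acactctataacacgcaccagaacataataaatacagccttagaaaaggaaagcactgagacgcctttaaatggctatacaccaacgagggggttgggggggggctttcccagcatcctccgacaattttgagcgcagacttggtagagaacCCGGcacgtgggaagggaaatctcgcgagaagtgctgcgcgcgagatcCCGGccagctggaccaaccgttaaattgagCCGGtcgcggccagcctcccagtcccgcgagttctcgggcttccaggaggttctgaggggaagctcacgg
Dbp: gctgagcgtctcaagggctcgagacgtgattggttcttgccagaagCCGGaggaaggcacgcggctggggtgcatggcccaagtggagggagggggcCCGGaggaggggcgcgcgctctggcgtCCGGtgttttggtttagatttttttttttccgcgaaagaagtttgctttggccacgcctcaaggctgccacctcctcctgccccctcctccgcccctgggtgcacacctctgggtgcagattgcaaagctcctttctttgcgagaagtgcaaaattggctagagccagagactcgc
Ppp1r3g: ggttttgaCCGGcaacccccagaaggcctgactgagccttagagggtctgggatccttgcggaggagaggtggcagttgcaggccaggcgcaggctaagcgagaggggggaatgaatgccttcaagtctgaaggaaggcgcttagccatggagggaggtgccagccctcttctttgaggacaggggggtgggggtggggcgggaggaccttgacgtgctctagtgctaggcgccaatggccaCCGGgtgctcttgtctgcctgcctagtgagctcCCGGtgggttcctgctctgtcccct
Cryl1: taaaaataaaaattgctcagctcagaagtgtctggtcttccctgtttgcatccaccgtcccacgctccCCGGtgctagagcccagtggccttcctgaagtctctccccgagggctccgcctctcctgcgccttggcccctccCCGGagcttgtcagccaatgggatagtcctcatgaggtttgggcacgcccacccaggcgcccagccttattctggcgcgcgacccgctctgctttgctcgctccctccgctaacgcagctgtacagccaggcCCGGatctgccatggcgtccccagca

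At the Sycp1 promoter, the germ-line gene of the set, no HpaII tag was found at any of its 3 CCGG in any of the 8 livers, against 26, 44 and 28 MspI tags in the reference. The adjacent core was methylated too, with a mean m-score of 2.08 over the 8 livers. The Cryl1 promoter stood at the other end of the scale. Its first CCGG had m-scores of 88.7, 94.4, 86.2 and 88.9 in lingonberry livers, against 91.0, 88.5, 89.0 and 89.0 in HFD livers, next to a core at 83.9. The groups overlapped at that site, and the other two CCGG averaged 81.6 and 90.8 over the 8 livers.

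At the Dbp promoter, the first CCGG, 360 bp from the core, had m-scores of 54.9, 59.6, 54.3 and 60.8 in lingonberry livers, against 58.4, 52.3, 70.7 and 58.2 in HFD livers. The other CCGG were less methylated, at 79.4 and 76.7 over the 8 livers, and the groups overlapped at all 3. The Ppp1r3g promoter crossed from methylated to unmethylated within its own window. Its CCGG at base 9, 519 bp from the core, had m-scores of 4.7, 14.9, 0 and 14.6 in lingonberry livers, against 37.9, 31.9, 12.7 and 0 in HFD livers. This site carried only 13 tags over the 8 livers, and the groups overlapped. At bases 243 and 276, near the start site, the m-score averaged 81.1 and 78.8 over the 8 livers.

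Of 80 placed promoters with all CCGG at shore sites and at least 3 of them, 43 were unmethylated by a mean of at least 75, 35 were intermediate and 2 were methylated, with a mean below 25. Their median was 75.6.

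Shore sites as a class were intermediate and broadly spread. The median member had an m-score of 45.9 over the 8 livers, with quartiles of 11.1 and 71.7. Members below 25 made up 37.0%, members from 25 to 75 made up 43.0% and members at 75 or above made up 20.03%. In 2876 members (4.86%) no liver had an HpaII tag. The mean over sites was 42.9 at shores, against 69.1 at cores, 26.5 at shelves and 20.8 in the open sea. The rule's limits cut a gradient and not a step. Sites at 1901 to 2000 bp averaged 28.7 and those at 2001 to 2100 bp, just outside, 28.2. Sites with 4 neighbours averaged 51.9 and those with 5, just outside, 56.5. Sites with 10 MspI tags averaged 39.2 and those with 9, just outside, 37.3.

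Across the shore the m-score was lower with distance from the core in every liver. It averaged 55.0 over the 8 livers in the first 100 bp, 38.4 at 901 to 1000 bp, 31.0 at 1401 to 1500 bp and 28.7 at 1901 to 2000 bp. The fall was interrupted at the width of the density window, with 47.0 at 401 to 500 bp and 50.1 at 501 to 600 bp. Sites beside methylated cores were more frequent on the near side of this step, with 5420 of 26677 members up to 500 bp and 1526 of 12191 members at 501 to 1000 bp. Their part in the step was not tested.

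**Figure D1:**
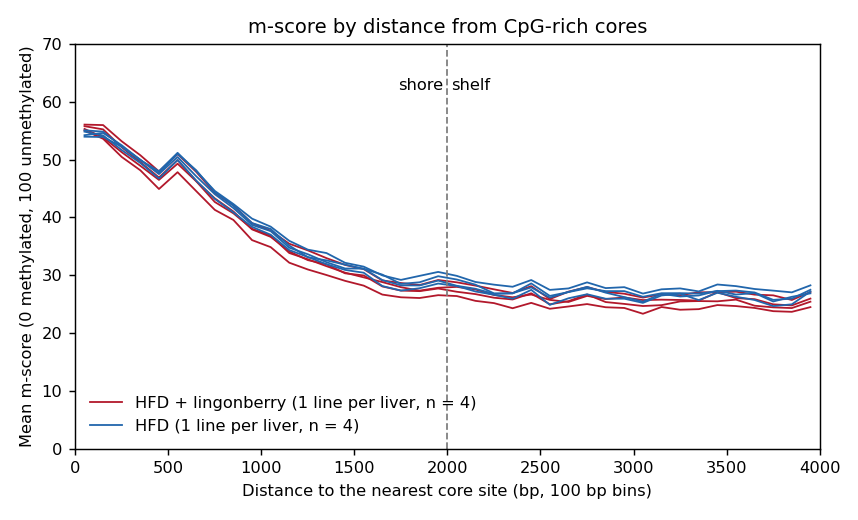
Mean m-score (0 methylated, 100 unmethylated) by distance to the nearest core site in 100 bp bins, with 1 line for each of the 4 lingonberry and 4 HFD livers and a dashed line at 2000 bp, the outer limit of shores. All 8 lines fall from about the middle of the scale at the core to a plateau reached near 2000 bp, and the lines of the groups interleave.

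The course of the gradient followed the state of the adjacent core, which was set from core sites alone over all 8 livers. Beside unmethylated clusters (core m-score of 75 or above, 20228 members), core sites averaged 77.9. Shore sites there averaged 67.9, 50.9, 37.8 and 31.6 in successive steps of 500 bp. Beside intermediate clusters (25 to 75, 27242 members), cores at 69.4 were followed by 57.7, 46.0, 35.9 and 29.6. Beside methylated clusters (below 25, 10389 members) the gradient ran the other way, with cores at 8.1 and shores at 13.2, 16.8, 20.002 and 20.3. Shore values thus fell with distance from unmethylated cores and climbed with distance from methylated ones. Clusters were sorted on the same core values, so the step from core to shore is in part set by the sorting. Clusters of 1284 members had no core site with 10 MspI tags and were left out.

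**Figure D2:**
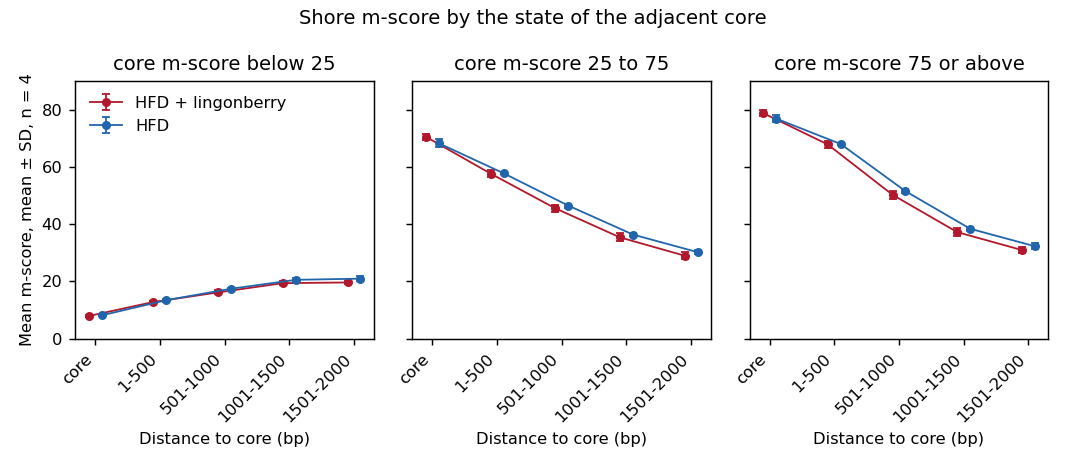
Mean m-score of core sites and of shore sites in 500 bp steps of distance, in 3 panels by the m-score of the adjacent core, for lingonberry and HFD livers (points are group means, bars are SD, n = 4 each). Shores descend from unmethylated and intermediate cores and ascend from methylated cores, and the points of the groups lie close together in every panel.

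Even close to an unmethylated core, single members varied. Of members up to 500 bp from such a core, 43.2% reached a mean m-score of 75 and 4.48% stayed below 25. At 1501 to 2000 bp these shares were 10.4% and 52.2%. Neighbouring shore sites resembled each other over short distances. Across 5289 pairs 51 to 100 bp apart, Pearson's r was 0.87 with a median absolute difference of 8.2 units, and across 10131 pairs 501 to 1000 bp apart it was 0.46 with 16.4 units. The sites of a pair share libraries and sequence context, so these are descriptions. The shores to the left and right of the same cluster were related loosely, with r of 0.40 across 9953 clusters and a median absolute difference of 17.1 units. Within methylated, intermediate and unmethylated cores r was 0.12, 0.27 and 0.17.

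Shore sites were less methylated than open sea sites of the same local density. At 0 neighbours, 8326 shore sites averaged 29.6 and open sea sites 18.6 over the 8 livers. The difference was 11.1 units at 0 neighbours, 15.3 at 1, 18.5 at 2, 19.9 at 3 and 15.6 at 4. The SE over livers was 0.27 or less and does not cover the spread between sites. Each difference was above 0 in 8 of 8 livers (two-sided exact sign-flip permutation test, p = 0.0078 for each of the 5 densities, the smallest 8 livers allow, and the same after Benjamini-Hochberg adjustment).

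**Figure D3:**
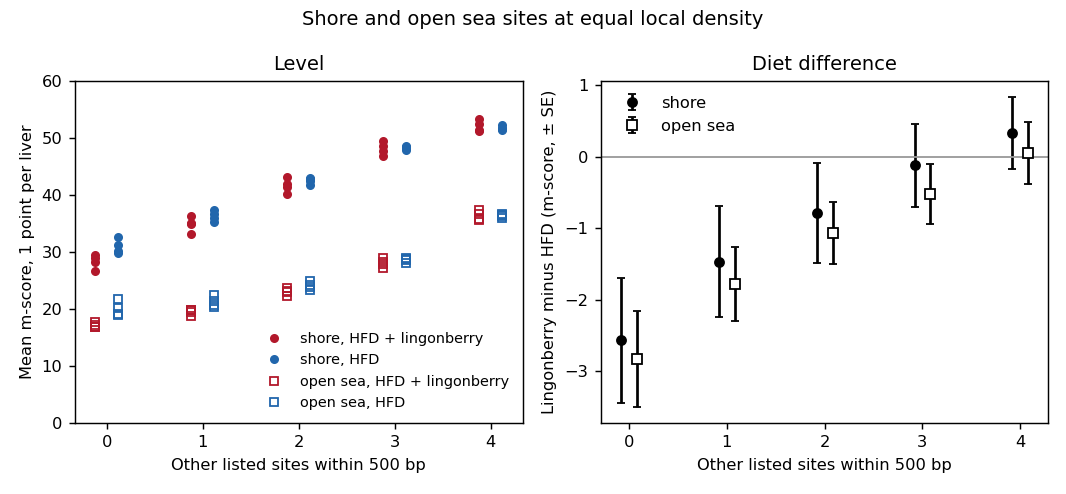
Left, mean m-score of shore sites (filled circles) and open sea sites (open squares) against the number of listed neighbours within 500 bp, with 1 point per liver. Right, the difference of lingonberry minus HFD livers with its SE in the same classes. Shore sites lie above open sea sites at every density, and the diet difference runs upward with density in both classes, to 0.34 at shores and 0.05 in the open sea at 4 neighbours.

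Where a promoter could be placed, the shore on the gene side could be told from the shore upstream. This comparison was added after the data were seen. In all, 3590 clusters held a placed promoter, 402 of them with promoters on both strands, which were left out. Both shores had members at 1717 clusters. The gene-side shore averaged 49.5 and the upstream shore 44.3 over the 8 livers, each cluster counting once. The difference was 5.17 ± 0.10 units (SE over 8 livers), above 0 in 8 of 8 livers (two-sided exact sign-flip permutation test, p = 0.0078, the smallest possible). It was 5.35, 5.38, 5.08 and 5.25 in lingonberry livers, against 4.64, 4.92, 5.50 and 5.25 in HFD livers. This SE and p measure the spread between livers at the same clusters and not the spread between genes. The gene-side shore was the less methylated one at 962 of the 1717 clusters (56.0%), so single genes often ran the other way. By distance, sites were pooled with each site counting once, also from clusters with members on 1 side only. In this wider set the gene-side and upstream shores averaged 65.1 and 62.8 up to 500 bp (1887 and 1594 sites). They averaged 51.4 and 43.8 to 1000 bp, 36.9 and 33.4 to 1500 bp and 28.1 and 25.1 to 2000 bp. At the 1717 clusters the mean number of neighbours was 1.99 on the gene side and 1.95 upstream.

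**Figure D4:**
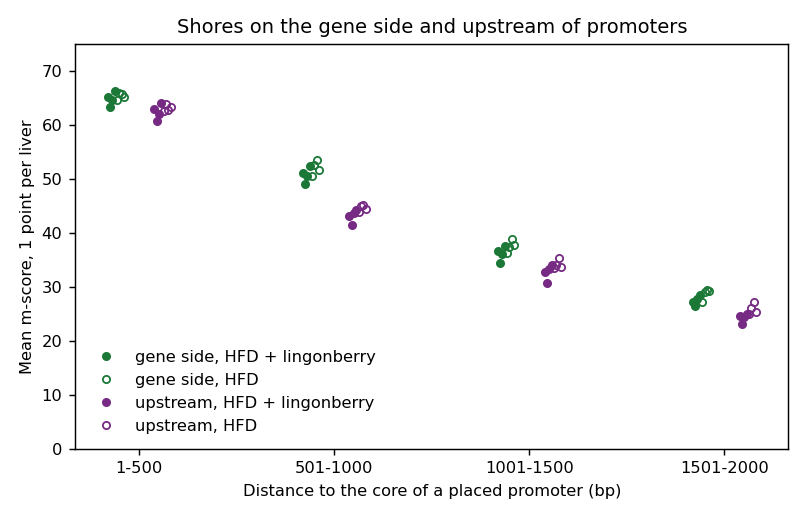
Mean m-score of shore sites on the gene side and upstream of cores with a placed promoter, by distance to the core in 500 bp steps, with 1 point per liver (filled for lingonberry, open for HFD). Sites were pooled in each step, also from clusters with members on 1 side only. Within each liver the gene-side point lies above the upstream point in each step, while the clouds of points overlap between livers in 3 of the 4 steps, and the gap is widest at 501 to 1000 bp.

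Among the 159 such clusters with at least 3 members on each side, the widest gaps in each direction were chosen on these values and so are given as descriptions. At Lcat, the gene of the liver-made plasma enzyme that esterifies cholesterol on lipoproteins, 4 gene-side sites averaged 72.8 over the 8 livers (67.6 to 77.3) and 5 upstream sites 1.7 (0 to 7.1). At Fgf4, a growth factor of the early embryo, the gene side averaged 67.3 and the upstream side 4.6. At Dot1l, the methyltransferase of histone H3 lysine 79, they averaged 64.2 and 9.9. At Fam78a they averaged 59.96 and 6.6, and at Top3b, a topoisomerase, 54.9 and 1.6. At Slc44a4, a membrane transporter, the gene side averaged 64.3 and the upstream side 5.9 beside a core that was itself methylated (10.9).

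The opposite arrangement was as clear at other genes. At Ankrd13b, 5 gene-side sites averaged 11.1 and 4 upstream sites 71.5. At Susd4, a membrane protein that restrains complement, they averaged 7.8 and 61.9. At Srrm4, a splicing factor of neurons, they averaged 32.7 and 79.1, and at Stc2, a secreted glycoprotein, 31.3 and 74.4. At Fem1a, a substrate receptor of a ubiquitin ligase, they averaged 7.5 and 52.6. At Ano1, a calcium-activated chloride channel, they averaged 23.3 and 66.3. Each of these genes kept its order in all 8 livers. Of 72 such clusters with an unmethylated core, Ankrd10 was the 1 with both shores at 75 or above (78.8 and 76.7), and both shores lay below 25 at 2 clusters. These were Vars2, a mitochondrial valyl-tRNA synthetase (14.1 and 1.3), and Nol9, a kinase of ribosomal RNA processing (1.4 and 18.9).

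Flanks, the members on 1 side of 1 cluster, numbered 24643, of which 9373 had at least 3 members and 2131 at least 5. The flank upstream of Pax6, a transcription factor of eye, brain and pancreas, had 10 members, the most of any flank (mm9 chr2:105506899-105508489). It averaged 81.7, 80.3, 79.9 and 78.6 in lingonberry livers, against 80.8, 75.9, 75.4 and 78.6 in HFD livers, beside a core at 82.9. The sharpest loss from an unmethylated core was upstream of Vars2 (mm9 chr17:35805385-35806697, 5 sites). There the core stood at 80.1, and the flank at 0, 0, 0 and 2.6 in lingonberry livers, against 0, 4.6, 3.2 and 0 in HFD livers. The flank that holds the Dbp promoter (mm9 chr7:52959051-52960493, 9 sites) averaged 67.4, 56.8, 58.4 and 65.3 in lingonberry livers, against 55.4, 64.1, 63.9 and 63.6 in HFD livers. The groups overlapped in all 3 of these flanks.

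A core that fell just under the limit of 75, and so counted as intermediate, could also border a methylated flank. At mm9 chr7:148624990-148625496, 5 sites beside a core at 74.7 averaged 1.3 over the 8 livers. Beside methylated cores, the 9 sites at mm9 chr11:101632610-101634164 averaged 36.5 over a core at 5.0. This average pooled unlike sites, and no single site lay near it. Over the 8 livers, its sites up to 500 bp from the core had means of 0 to 4.7, as methylated as the core. Its other sites all lay beyond 1000 bp and had means of 43.0 to 91.1. The 9 sites at mm9 chr3:89148247-89149723 averaged 7.9, next to a core of 1 site at 6.8. The other 3 flanks that were to be named by size or drop averaged 56.4, 40.1 and 5.0 over the 8 livers. The flanks at 56.4 and 40.1 had 9 sites each beside a core of 1 site, at 82.2 and 74.5. The flank at 5.0 had 5 sites beside a core of 3 sites at 24.5.

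Among lists of liver genes, 5 of 7 genes that write, read or erase DNA methylation were placed on clusters. Of the hepatocyte genes 0 of 10 were placed, of the lipid metabolism genes 0 of 12 and of the markers of other liver cells 1 of 8, so these 3 lists give no account of shores. The 1 was Epcam, an adhesion molecule of bile duct epithelium, whose promoter held 3 shore sites with a mean m-score of 72.5 over the 8 livers. Tet2, an enzyme that oxidises methylcytosine, had 2 gene-side sites at 63.6, 68.6, 76.9 and 66.8 in lingonberry livers, against 81.7, 76.4, 76.6 and 72.8 in HFD livers. The groups overlapped. Tet3, of the same family, had intermediate shores of 51.0 on the gene side and 51.3 upstream over the 8 livers, next to a core at 82.7. Uhrf1, which guides maintenance methylation to newly copied DNA, had 5 upstream sites at 73.3, 66.1, 68.4 and 70.1 in lingonberry livers, against 73.1, 71.7, 69.8 and 70.3 in HFD livers. Its groups overlapped. Its single gene-side site had 60.5, 19.04, 0 and 29.6 in lingonberry livers, against 45.8, 71.1, 56.4 and 53.2 in HFD livers, and the groups overlapped there too. At 2 clusters of Dnmt3a, a de novo methyltransferase, the gene-side shores averaged 42.2 and 47.9 and the upstream shores, of 1 site each, 73.6 and 80.3. Dnmt1, the maintenance methyltransferase, had no shore site.

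With lingonberries, the mean m-score over shore sites did not differ beyond the spread between livers. It was 42.8, 41.2, 42.4 and 43.9 in lingonberry livers, against 42.7, 43.5, 43.7 and 43.3 in HFD livers. The groups overlapped, and lingonberry replicate 2 was the lowest liver. Lingonberry livers averaged 42.5 ± 1.11 and HFD livers 43.3 ± 0.44 (SD, n = 4 each). The difference was -0.74 ± 0.60 (SE, two-sided exact permutation test, p = 0.314, where 4 against 4 livers cannot give a p below 0.0286). Without lingonberry replicate 2 it was -0.28 and without lingonberry replicate 4 it was -1.17, neither with a call. The labels do not say more about how samples were taken or processed, so p-values measure the spread between these 8 livers.

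The shares of methylated and unmethylated members gave no call either. Members below 25 made up 37.8% ± 1.28 with lingonberries and 36.6% ± 0.79 without (SD, n = 4 each, exact permutation test, adjusted p = 0.257 over 3 shares). Members from 25 to 75 made up 39.2% ± 0.60 and 40.2% ± 0.59 (exact permutation p = 0.0571, adjusted p = 0.171). Members at 75 or above made up 22.9% ± 1.26 and 23.2% ± 0.46 (adjusted p = 0.886). The share of HpaII tags at shore sites was 9.79% ± 0.22 in lingonberry livers and 9.79% ± 0.09 in HFD livers (SD, n = 4 each). It gave no call (exact permutation p = 1). This share uses the MspI reference only in the site filter. Its tags were recovered with the deposited m-score and are not independent of it.

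By distance, lingonberry livers averaged 51.1, 43.5, 33.1 and 28.1 in successive 500 bp steps, and HFD livers 51.3, 44.6, 34.2 and 29.4. The differences were -0.23, -1.11, -1.10 and -1.28, with adjusted p of 0.229 or more over the 4 steps (exact permutation tests). Beside methylated cores shores averaged 15.6 ± 0.51 in lingonberry livers and 16.5 ± 0.49 in HFD livers (SD, n = 4 each). Their difference was -0.93 (exact permutation p = 0.0571, adjusted p = 0.171 over 3 core states). Beside intermediate cores the difference was -0.65 and beside unmethylated cores -0.78, with an adjusted p of 0.429 for each (exact permutation tests). All 19 autosomes had a lower shore mean with lingonberries, by -0.39 to -1.07. They come from the same 8 livers and are not independent.

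Measured against the other classes within each liver, shores lay 27.5 ± 1.01 units below cores with lingonberries and 24.9 ± 1.57 below without (SD, n = 4 each). The change in this contrast was -2.68 ± 0.93 (SE), with no overlap of the groups (exact permutation p = 0.0286). It did not pass the adjustment over 3 contrasts (adjusted p = 0.0857). The shore mean alone differed by -0.74 with overlapping groups, so the contrast also holds a difference at cores. At unmethylated clusters core sites averaged 78.8 in lingonberry livers and 76.9 in HFD livers. At intermediate clusters they averaged 70.5 and 68.3, and at methylated clusters 7.9 and 8.2. The groups overlapped in each core state. Shores lay 16.7 ± 0.39 units above shelves in lingonberry livers and 16.2 ± 0.36 in HFD livers (SD, n = 4 each), a change of 0.50 (exact permutation p = 0.143, adjusted p = 0.143). They lay 22.7 ± 0.86 above the open sea in lingonberry livers and 21.4 ± 0.65 in HFD livers (SD, n = 4 each), a change of 1.30 (exact permutation p = 0.0571, adjusted p = 0.0857).

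The diet difference ran with local density among shore sites. Members with 0 neighbours averaged 28.3, 26.7, 29.0 and 29.5 in lingonberry livers, against 29.8, 31.2, 32.6 and 30.1 in HFD livers. All lingonberry livers lay below all HFD livers, by -2.57 on average (exact permutation p = 0.0286, adjusted p = 0.143 over 5 densities). Members with 4 neighbours averaged 52.4, 51.2, 51.5 and 53.3 in lingonberry livers, against 51.6, 51.8, 51.4 and 52.2 in HFD livers, a difference of 0.34 with overlapping groups. The densities between gave -1.47, -0.79 and -0.12. In a contrast added after the data were seen, members with 0 neighbours lay 23.7 ± 0.88 below those with 4 in lingonberry livers and 20.8 ± 1.497 below in HFD livers (SD, n = 4 each). This contrast differed by -2.90 ± 0.87 (SE, exact permutation p = 0.0286). It lost the call, at an exact permutation p of 0.0571, without lingonberry replicate 1, 2 or 4 or HFD replicate 2 or 3.

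Open sea sites had nearly the same series of diet differences, at -2.83, -1.78, -1.06, -0.52 and 0.05 for 0 to 4 neighbours. The difference between shore and open sea at equal density was 0.26 to 0.40 units wider with lingonberries (SE 0.19 to 0.57), with an adjusted p of 0.286 or more at each of the 5 densities (exact permutation tests). A diet difference particular to shores was therefore not detected at equal density.

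No flank passed the test between the diets. Over 9373 flanks with at least 3 members, limma called 0 at an adjusted p below 0.05 (0% of all flanks tested), with 488 at an unadjusted p below 0.05 and a smallest adjusted p of 0.131. The median difference was -0.24 units, and 4963 of the flanks (52.9%) were lower with lingonberries. The median SE of a flank's difference was 3.57 units. On simulated tags the same test recovered 23 of 100 flanks changed 2-fold and 71 of 100 changed 4-fold. The lack of calls therefore does not show that no flank changed.

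The flanks of 5 or more members with the smallest p are given as values, since each had an adjusted p of 0.920. Choosing by small p favours groups that do not overlap, so that trait is no support for a difference. Its share over all flanks was not counted. The flank at mm9 chr12:113909696-113911044, beside the core of Akt1, a kinase of insulin signalling, had 21.3, 15.1, 10.95 and 17.2 in lingonberry livers, against 26.9, 46.0, 28.8 and 24.4 in HFD livers. Its core carries promoters on both strands, Akt1 and Gm30150. The groups did not overlap, and the difference was -15.4 ± 4.8 units (SE, n = 4 each). At mm9 chr10:118444303-118445190 the values were 9.6, 6.5, 10.3 and 13.1 in lingonberry livers, against 23.3, 15.97, 20.3 and 18.98 in HFD livers. These flanks rested on few tags, 10 to 54 and 6 to 13 per liver.

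On the other side, the flank at mm9 chr17:46295761-46297401 had 73.6, 75.1, 76.4 and 80.6 in lingonberry livers, against 67.9, 62.8, 55.4 and 71.2 in HFD livers. It held 59 to 270 tags per liver, and the groups did not overlap. At mm9 chr14:33276220-33277590 the values were 82.7, 78.5, 79.3 and 79.9 in lingonberry livers, against 77.0, 72.8, 69.1 and 58.2 in HFD livers. The other 6 flanks of this kind differed by 6.82 to 12.7 units where higher and by -7.67 to -9.24 units where lower, and the groups overlapped in 1 of them.

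Of single sites, limma called 5 shore sites (0.00845% of members), against 176 of all 1310003 sites (0.0134%), at an adjusted p below 0.05. All 5 were lower with lingonberries, the direction of 124 of all calls (0.00947%). The direction of the calls varied with the livers used, at shores as over all sites. Without lingonberry replicate 3, 14 of 18 shore calls and 524 of 699 calls over all sites were higher with lingonberries. Without lingonberry replicate 2 these were 5 of 11 and 138 of 290. The 5 sites themselves stayed lower with lingonberries whichever liver was left out. At an unadjusted p below 0.05 there were 2822 shore sites (4.77%), against 4.17% of all sites. Of the 5, 4 were methylated sites with no HpaII tag in any lingonberry liver and the same low count in each HFD liver. The sites at mm9 chr5:112747579 and chr5:112748100 shared a single tag, 0.5 each, in every HFD liver. The sites at mm9 chr7:146130933 and chr7:135414787 had 1 tag in every HFD liver. Counts of 0 and 1 lie within the limit that a count of 0 allows.

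The remaining site, at mm9 chr8:124104411, 1829 bp from its core and without neighbours, had 5, 3, 2 and 4 HpaII tags in lingonberry livers, against 6, 6, 6 and 9 in HFD livers. Its m-scores were 37.1, 36.2, 38.7 and 44.2 in lingonberry livers, against 67.9, 69.9, 72.6 and 76.4 in HFD livers, with no overlap. The difference was -32.7 ± 2.70 units (SE, n = 4 each, limma adjusted p = 0.0485). The call was lost in 3 of the alternatives tried, with adjusted p of 0.0663, 0.291 and 0.999, and without any 1 of 7 livers. With at least 1 HpaII tag required in each group, limma called 0 of 52013 shore sites and 0 of all 911808 sites. At an unadjusted p below 0.05 there were then 1539 shore sites, and 33504 over all sites.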

How the data were processed

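HELP-tagging libraries of 8 livers were deposited as 1 table each, with a position, an m-score and a value named conf per HpaII site, per the file headers. The deposited m-score was treated as a score and conf as a signal. The authors' build was mm9 and CASAVA is named, with no version or role, per the submitters' processing notes. The aligner and the filters on tags were not given in the sources used here. From the values, the m-score was read as the angle and conf as the length of the vector of MspI and HpaII tags, from which tags were recovered (whole within 0.02 at 96.1% to 97.0% of the sites with a tag). Group means were compared by two-sided exact permutation tests with Benjamini-Hochberg adjustment. Sites and flanks were tested on the m-score with limma 3.58.1 in R 4.3.3 (mean trend, adjusted p below 0.05). Only the flank test was run on simulated data (dispersion 0.05), with 3 false calls over 9373 flanks.

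Flanks of at least 5 sites were named by the 5 smallest p in each direction, called sites by adjusted p, and further flanks by most members or largest drop from the core. Members and lists were chosen with earlier results of these data known. Promoters were placed by matching CCGG spacing to the listed sites, a step added after the data were seen. Of 4373 RefSeq promoters with at least 4 CCGG, 2633 matched 1 position, all in RefSeq order, and 18 matched several. Of 2562 with 3 CCGG, 2329 were placed between placed neighbours. Alternatives changed the MspI minimum (1 or 20 tags), the core density (8), the depth (thinned to 5857609 tags), shared tags and the samples.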

Additional observations from a re-analysis of the deposited data

Results flagged for a closer look

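The diet difference was unequal among shore sites of different local density, with a contrast of -2.90 between members with 0 and with 4 neighbours (exact permutation test, p = 0.0286, 4 against 4 livers). This contrast was added after the data were seen and lost its call when some single livers were left out. It was not particular to shores, since the diet difference in the open sea ran from -2.83 at 0 neighbours to 0.05 at 4. Library depth moved with the groups, at 6121989 to 16076961 HpaII tags in lingonberry livers and 5877080 to 7428108 in HFD livers. With all libraries thinned to 5857609 tags the contrast was -2.97 (exact permutation test, p = 0.0286).

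In 84 groups of 4 livers examined for a liver far from the other 3, 4 had one, where chance gives about 1 in 20 (4.2). HFD replicate 3 stood apart in the excess of shore over open sea sites, at 19.2 units with 3 neighbours and 14.9 units with 4 neighbours. HFD replicate 1 was low in the flank that holds the Dbp promoter, at 55.4. Lingonberry replicate 4 alone had a tag in the Vars2 upstream flank within its group, at 2.61.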

How the results depend on the processing

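No paired analysis was possible because the labels number the 8 livers in 1 run with no pairs, and the replicate numbers used here only follow that order. The excess of shore over open sea sites at equal density and of gene-side over upstream shores kept its sign and its call under every alternative run, with gene side minus upstream at 3.87 to 6.63. With core sites set at a density of 8 or more, several diet differences without a call changed sign. The mean m-score differed by 0.204, the share at 75 or above by 1.61, the step to 500 bp by 0.943, shores of intermediate and unmethylated cores by 0.204 and 0.223, and the matched difference at 4 neighbours by -0.0121. The share of tags there differed by 0.521 percentage points and passed (exact permutation test, p = 0.0286). That share, at 0.000177 as reported, was -0.0179 with at least 20 MspI tags, -0.00264 thinned and -0.00456 without shared tags. The share at 75 or above was 0.183 with at least 20 MspI tags, and shore minus shelf was -0.195 with classes weighted to shore density. The cause was not tested.

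Leaving out 1 liver at a time moved the mean shore difference to between -1.17 (without lingonberry replicate 4) and -0.276 (without lingonberry replicate 2), and the median over sites differed by -1.72, none with a call. It gave -1.24 to -0.261 beside unmethylated cores, -1.16 to -0.127 beside intermediate cores and -1.14 to -0.695 beside methylated cores, and -1.57 to -0.585, -1.57 to -0.561 and -1.67 to -0.828 in the 3 further distance steps. The ranges were -0.0603 to 0.104 for the tag share, -0.585 to 0.375 for the share at 75 or above, -0.657 to 0.178 for the step to 500 bp and -3.32 to -2.23 for 0 minus 4 neighbours. It gave -0.196 to 0.712, -0.0311 to 0.647 and -0.0124 to 0.539 for the matched differences at 0, 1 and 2 neighbours. Calls of limma at single sites ran from 7 to 21 of 59143 shore sites with 1 liver left out (21 without HFD replicate 1). Over all 1310003 sites they ran from 216 to 699 in the same runs (656 without HFD replicate 1). With all livers, 5 shore sites and 176 of all sites were called. Both counts were 0 with at least 1 HpaII tag in each group. The fall with distance beside unmethylated cores, added after the data were seen, was 36.9 with lingonberries and 35.7 without (exact permutation test, p = 0.0571).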
